A study of Mus musculus with 6 samples.

Results

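The replication-dependent histone genes encode the bulk of the core histones H2A, H2B, H3 and H4 and the linker histone H1. They were chosen as the rows of the deposited table whose identifier carries, in the GENCODE M21 annotation of the mouse build GRCm38, a protein-coding symbol that begins with Hist1h, Hist2h, Hist3h or Hist4h. This gave 67 of the 49328 genes in the table, with 6 H1, 18 H2A, 18 H2B, 12 H3 and 13 H4 genes. They were measured by RNA sequencing in 6 libraries of cultured bone marrow mesenchymal stromal cells (MSCs), which were isolated from CB6F1 mice with acute graft-versus-host disease, a condition in which donor immune cells attack the recipient. Cells of the R group (3 libraries) received a compound labelled only R, at 0.5 um as the label writes the unit, in culture. Cells of the vehicle group (3 libraries) received the solvent DMSO. The disease, the strain and the culture medium were common to both groups. The sources used here do not give the identity of R, the length of treatment or whether the libraries of a group came from separate animals or cultures. The p-values therefore describe the spread among these 6 libraries, which may be technical. The question put to the histone genes was which of them differed between R and vehicle, and by how much.

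As background, these genes lie together in clusters and are transcribed mainly in S phase, when newly copied DNA is packed into nucleosomes. Their messenger RNAs are the known exception among animal mRNAs in that most end in a short stem-loop in place of a poly(A) tail. The stem-loop is bound by SLBP, which carries the mRNA through processing and translation, and the mRNA is broken down when replication stops. Some members are also known to give polyadenylated transcripts that read past the stem-loop, mostly in cells that are differentiating or no longer dividing. Library methods that select poly(A) RNA therefore miss much of the histone message. The sources used here do not say how RNA was selected for these libraries.

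The stem-loop itself could be read from the GENCODE M21 transcripts. The 16-base word with a perfect stem found after the stop codon in the largest number of members was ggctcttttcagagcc, and windows were matched to it with up to 3 mismatches. Of the 52 members with at least 30 annotated bases after the stop, 44 held such a window, and 26 matched without a mismatch. The stem-loops of the members described most closely are shown to let the H4 form be compared with the others, with the 4-base loop in capitals.
Hist1h1c: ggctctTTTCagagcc
Hist1h2bg: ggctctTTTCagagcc
Hist1h2be: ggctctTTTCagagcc
Hist2h3c2: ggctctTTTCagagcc
Hist1h4h: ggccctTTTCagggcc
Hist1h4i: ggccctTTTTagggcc
Both H4 genes shown carried a different base pair in the stem, and Hist1h4i also a different loop. In Hist1h2bc and Hist2h2be no such window was found in the annotated transcript, and that of Hist1h2bc continues into a distant exon (chromosome 13, 23684199 to 23692908, plus strand). The annotated Hist1h1c transcript ran on for 840 bases past the stem-loop, that of Hist1h4i for 330, that of Hist1h2bg for 155 and that of Hist1h4h for 46. Among the 18 tested members, 14 had a stem-loop, and 8 of these ran more than 100 bases past it, with a median of 153. Among the 49 members too low to test, 30 had one, 14 of them ran more than 100 bases past it and the median was 65.5. A common poly(A) signal (AATAAA or ATTAAA, as written on the transcript strand) stood in the last 40 bases of a transcript in 7 of the tested and 10 of the untested members. It stood there in 59.8% of the 50588 annotated coding transcripts that had at least that many bases after the stop. The member counts are per gene and include members with fewer annotated bases, which could not score, so the bases differ. At least 30 bases after the stop were annotated for 16 of the tested and 36 of the untested members.

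Few of the 67 genes were abundant. A mean over the 6 libraries above 5 FPKM (fragments per kilobase of exon, relative to library depth) was reached by 5 members: Hist1h1c, Hist1h2bc, Hist1h4i, Hist1h2bg and Hist1h4h. Another 12 lay between 1 and 5 FPKM, 50 lay under 1, and 9 of these 50 were listed at 0 in each library. Hist1h1c and Hist1h2bc alone made up 66% to 74.5% of the summed histone FPKM in R libraries and 69.2% to 70% in vehicle libraries. By mean level Hist1h1c ranked 510 among the 11862 genes tested, Hist1h2bc 850 and Hist1h4i 3584. Other RNAs that lack a poly(A) tail were low as well: of 16 such genes in the table, 9 were at 0 in each library, among them Rpph1 and Rmrp, the RNA parts of RNases P and MRP. The highest of them, the abundant nuclear RNA Rn7sk, had 1.81, 1.18 and 1.17 FPKM in R and 1.95, 1.77 and 0.906 FPKM in vehicle. Their part in the histone values was not tested.

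**Figure D1:**
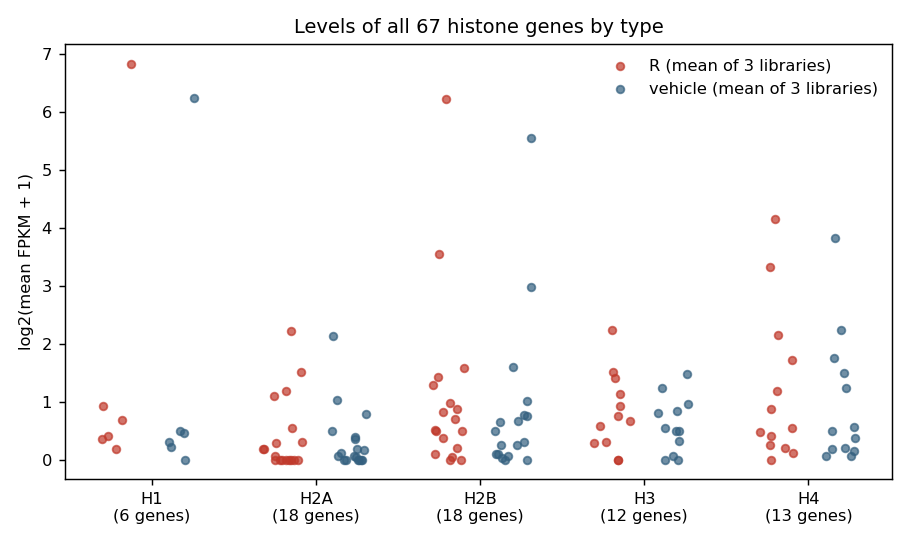
Group means of all 67 histone genes by type, as log2 of the mean FPKM + 1, with R left of vehicle and each point 1 gene (mean of 3 libraries). A single H1 gene and a single H2B gene stand far above the rest of their type in both groups, and most genes lie below 1 on this axis.

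R-treated cells had higher summed histone levels than vehicle cells in each of the 5 types. The sum over all 67 genes was 300, 260 and 238 FPKM in R replicates 1, 2 and 3 and 174, 166 and 180 FPKM in vehicle replicates 1, 2 and 3. The groups did not overlap, and the ratio of the means was 1.53. By type the ratio was 1.52 for H1, 1.37 for H2A, 1.59 for H2B, 1.6 for H3 and 1.46 for H4. For each type every R library lay above every vehicle library. A sum over chosen genes was given no test. The H1, H2B and H4 sums hold the abundant members named above, and the H2A and H3 sums hold none of them. In bulk RNA a larger share of cells that express a gene and more RNA per cell cannot be told apart.

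Of the 18 members with at least 1 FPKM in at least 3 of the 6 libraries, 4 were higher in R and 0 lower at an adjusted p of 0.05 (limma over all 11862 tested genes, Benjamini-Hochberg adjustment). These were Hist1h4h, Hist1h2bc, Hist1h2bg and Hist1h2be. Over all tested genes, 2.39% were called higher in R and 4.43% lower, against 22.2% and 0 of these 18. Hist1h2be passed the filter through its R libraries only, so it had to be higher there. It is still counted in the 22.2% and in the counts of positive changes and of separate groups that follow. To these it adds no evidence, and they were not repeated without it. The log2 change was positive in 14 of the 18 and negative in 4, with a median of 0.57, against a median of -0.00370 over all tested genes. In 9 of the 18 every R library lay above every vehicle library, as in 13.9% of all tested genes, and in 0 every R library lay below, as in 15.5%. With 1 FPKM needed in 3 libraries, Hist1h2ad, Hist1h2ae, Hist1h2be and Hist1h3g just passed, and Hist1h2ab, Hist1h2bb and Hist1h2bk just failed.

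**Figure D2:**
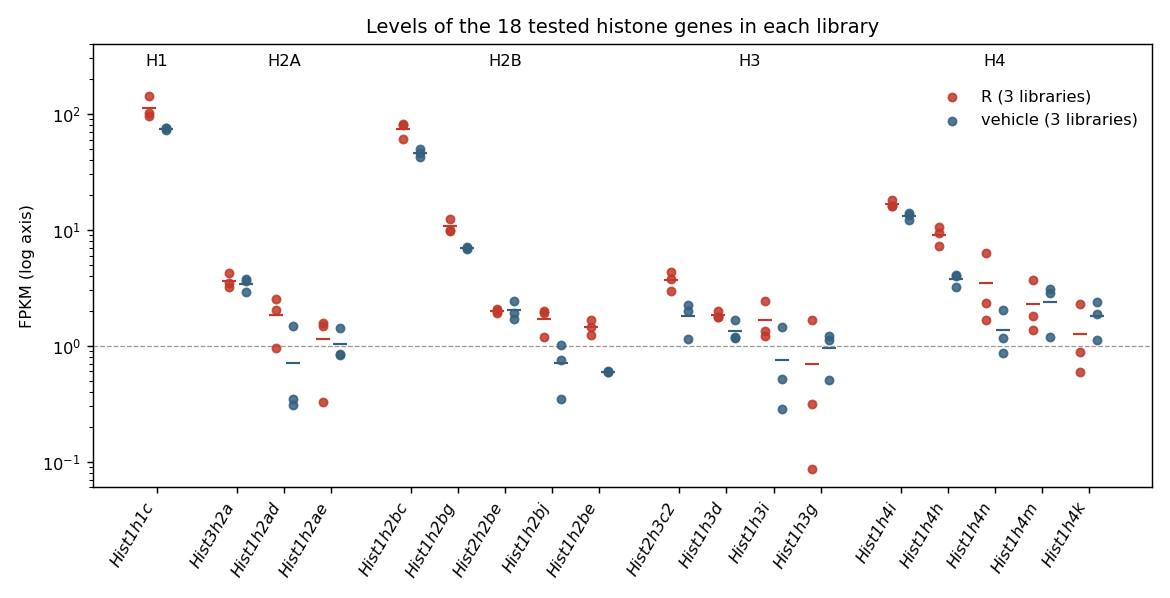
FPKM of the 18 tested histone genes on a log axis, grouped by histone type, with R left of vehicle; points are libraries, short lines are means of 3, and the dashed line marks 1 FPKM. Hist1h4h, Hist1h2bc, Hist1h2bg and Hist1h1c show no overlap between the groups, while those of Hist2h2be and Hist3h2a overlap.

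Hist1h4h had the smallest p-value of the 18 tested histone genes. It is 1 of the 13 genes for histone H4, which pairs with H3 at the centre of the nucleosome, and lies on chromosome 13 (23531050 to 23531519, plus strand). Hist1h4h had 9.29, 10.5 and 7.3 FPKM in R replicates 1, 2 and 3 and 3.99, 3.18 and 4.04 FPKM in vehicle replicates 1, 2 and 3. Even the lowest R library was well above the highest vehicle library. The log2 change, taken on the FPKM + 1 scale, was 1.08 (SE 0.15, adjusted p = 0.0077), on 62 to 95 estimated reads in an R library and 28 to 38 in a vehicle library. Its call held under all 14 alternatives tried (adjusted p = 0.0056 to 0.037). Of its 50-base words 54.2% occurred in no transcript of another gene, so part of its sequence is shared with other H4 genes.

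The other H4 genes were less clear. Hist1h4i, the most abundant H4 gene, had 16.1, 18.2 and 16 FPKM in R and 12.2, 13.4 and 13.9 FPKM in vehicle. The groups did not overlap, but the log2 change of 0.32 (SE 0.09) did not pass (adjusted p = 0.084). Together Hist1h4i and Hist1h4h gave 62.6% to 79.1% of the H4 sum in R libraries and 66.9% to 74.6% in vehicle libraries. Hist1h4n, Hist1h4m and Hist1h4k had log2 changes of 0.81, -0.05 and -0.36, none past the threshold, on at most 49 estimated reads in a library. Of the 50-base words of Hist1h4m, Hist1h4n and Hist1h4k, only 10.2%, 14.4% and 28.5% were free of other genes, so their values are uncertain. Hist1h4n had 2.35, 1.68 and 6.31 FPKM in R and 2.04, 0.869 and 1.16 FPKM in vehicle, with R replicate 3 far above the others.

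Among the H2B genes, whose product pairs with H2A on the outer faces of the nucleosome, Hist1h2bc and Hist1h2bg rose among the 4 tested genes that did not owe their place to the R libraries alone. Hist1h2be, which did, was also called. Hist1h2bc carried 75.7% to 79.2% of the H2B sum in R libraries and 75.1% to 78.7% in vehicle libraries. Hist1h2bc had 80.9, 79.6 and 60.9 FPKM in R and 45.7, 42.3 and 49.8 FPKM in vehicle, with no overlap (log2 change 0.66, SE 0.13, adjusted p = 0.03). The value rests on 1272 to 2034 estimated reads in an R library and 902 to 1153 in a vehicle library. Hist1h2bg (chromosome 13, 23571396 to 23572013, plus strand) had 12.5, 9.9 and 9.85 FPKM in R and 7.11, 6.91 and 6.79 FPKM in vehicle (log2 change 0.56, SE 0.11, adjusted p = 0.029). Its vehicle libraries were close together and all below the R libraries.

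Hist1h2be had 1.23, 1.45 and 1.68 FPKM in R and 0.606, 0.588 and 0.596 FPKM in vehicle (log2 change 0.62, SE 0.12, adjusted p = 0.032). Its exons sum to 4446 bases and the gene shares 496 bases with the H1 gene Hist1h1e on the same strand, so its value is uncertain there. The calls of Hist1h2bc, Hist1h2bg and Hist1h2be each ended in limma when R replicate 1 or 2 or vehicle replicate 1 or 2 was left out, or when genes below the filter were kept in (adjusted p = 0.053 to 0.11). Those of Hist1h2bg and Hist1h2be also ended without vehicle replicate 3, and that of Hist1h2be without R replicate 3 (adjusted p = 0.059 to 0.075). Hist1h2bj, also without overlap, had 1.99, 1.92 and 1.2 FPKM in R and 1.01, 0.346 and 0.756 FPKM in vehicle and did not pass (log2 change 0.67, SE 0.2, adjusted p = 0.093).

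Hist2h2be stood apart from these. It is the only tested H2B gene of the chromosome 3 cluster, with 2620 bases of exon, all of whose 50-base words are its own. It had 1.91, 1.99 and 2.09 FPKM in R and 2.42, 1.91 and 1.72 FPKM in vehicle. The log2 change was -0.00139 (SE 0.12, adjusted p = 0.997), and its sign turned under several alternatives, which are given with the processing.

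**Figure D3:**
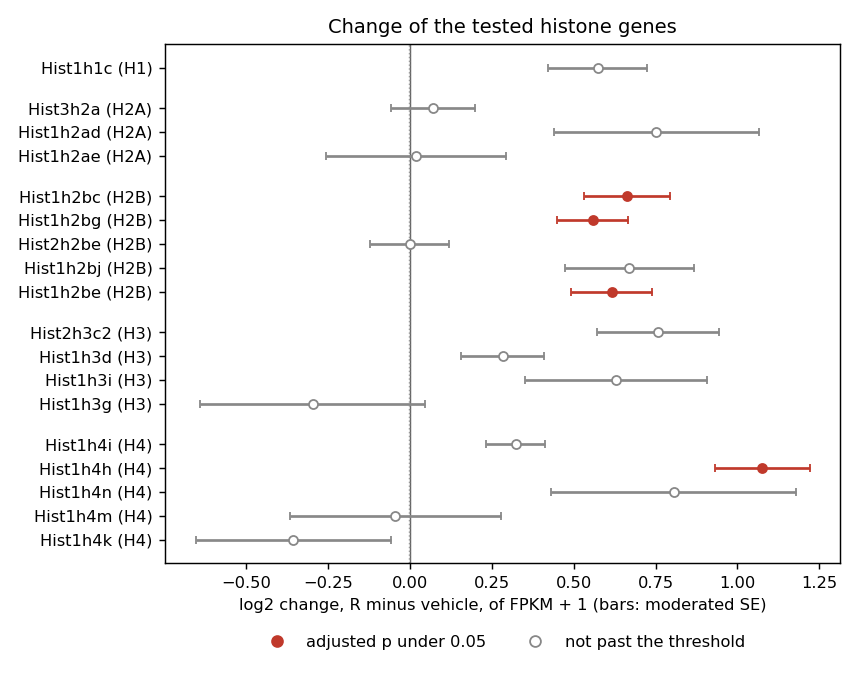
The log2 change (R minus vehicle, of FPKM + 1) of each tested histone gene with its moderated standard error, ordered by type and level; filled points are past the threshold and the dotted line is the median of all tested genes. The 4 filled points lie between 0.56 and 1.08, and 4 of the 18 genes lie below 0.

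Of the summed level of the 6 H1 members, nearly all came from Hist1h1c. It encodes the H1.2 variant of the linker histone, which binds the DNA that enters and leaves the nucleosome. The replication-independent linker histone gene H1f0, not a member, averaged 46.6 ± 2.63 FPKM in R and 53.2 ± 3.78 FPKM in vehicle (SD, n = 3 each). Every R library of H1f0 lay below every vehicle library, but it did not pass in limma (adjusted p = 0.26). Hist1h1c (chromosome 13, 23738808 to 23740367, plus strand) had 142, 101 and 96.2 FPKM in R and 76.1, 72.4 and 75.1 FPKM in vehicle. Every R library was above every vehicle library, but R replicate 1 was far above the other R libraries. The log2 change of 0.57 (SE 0.15) missed the threshold (adjusted p = 0.07, or 0.059 to 0.19 over the 14 alternatives). It was 0.4 without R replicate 1. Hist1h1c gave 96.8% to 98.7% of the H1 sum in R libraries and 97.8% to 98.9% in vehicle libraries. Hist1h1d, too low to test, had 0.706, 0.472 and 0.626 FPKM in R and 0.292, 0.252 and 0.175 FPKM in vehicle, again without overlap, over 63 to 114 and 26 to 37 estimated reads.

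The H3 genes, whose product forms the tetramer with H4, were low, and 0 of 4 tested genes passed, while 1 had an unadjusted p under 0.05 in limma. Hist2h3c2, the most abundant, had 2.98, 4.31 and 3.8 FPKM in R and 2.24, 1.15 and 2.01 FPKM in vehicle (log2 change 0.76, SE 0.19, adjusted p = 0.059). Hist1h3d had 1.99, 1.78 and 1.77 FPKM in R and 1.17, 1.2 and 1.68 FPKM in vehicle (log2 change 0.28, SE 0.13, adjusted p = 0.23). Both were without overlap and short of the threshold. Hist1h3i had 1.34, 1.22 and 2.42 FPKM in R and 0.285, 0.519 and 1.46 FPKM in vehicle (log2 change 0.63, SE 0.28, adjusted p = 0.22), where the groups overlapped. Only 12.4% of the 50-base words of Hist1h3i and 36.5% of those of Hist2h3c2 were free of other genes, so both values are uncertain. Hist1h3g had 0.0868, 1.68 and 0.313 FPKM in R and 1.22, 0.503 and 1.13 FPKM in vehicle (log2 change -0.3, SE 0.34), which is 1 to 16 estimated reads in a library. Its libraries overlapped fully.

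Of the 3 tested H2A genes 0 passed in limma, with 1 at an unadjusted p under 0.05. Hist3h2a, the most abundant and the only tested gene of the chromosome 11 cluster, had 4.22, 3.24 and 3.46 FPKM in R and 3.6, 3.76 and 2.89 FPKM in vehicle (log2 change 0.07, SE 0.13, adjusted p = 0.79). Hist1h2ad had 0.965, 2.04 and 2.52 FPKM in R and 0.307, 1.49 and 0.349 FPKM in vehicle (log2 change 0.75, SE 0.31, adjusted p = 0.2). Only 32.9% of its 50-base words were free of other genes, so its value is uncertain. Hist1h2ae had 0.327, 1.58 and 1.49 FPKM in R and 1.41, 0.834 and 0.852 FPKM in vehicle (log2 change 0.02, SE 0.27). The libraries of all 3 genes overlapped between groups. Of the 18 H2A genes, 17 are overlapped on the opposite strand by an annotated microRNA gene of the same table, over 129 to 144 bases. Hist3h2a also lies within the longer gene Trim17 on the same strand, where strand could not separate the reads, so its value is uncertain. The sources used here do not say whether the authors' counting used the strand, so reads from a histone gene and its opposite-strand partner cannot be told apart.

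The 49 untested members were at very low levels. Their summed level was 17.3, 15.6 and 14.6 FPKM in R and 8.35, 11.3 and 10.8 FPKM in vehicle, with no overlap, over 296 to 426 estimated reads in an R library and 170 to 218 in a vehicle library. The ratio of the means was 1.56, and that of Hist1h1c and Hist1h2bc together was 1.55. Of the 40 with any read, 27 had the higher mean in R and 13 in vehicle. In 6 every R library lay above every vehicle library, among them Hist1h1d, Hist1h2bk, Hist1h3e and Hist1h4c, and in 1, Hist3h2ba, every R library lay below. Over all genes with any read these shares were 9.21% and 10.2%. That set also holds the tested genes, in which they were 13.9% and 15.5%. The shares among untested genes alone are therefore lower and were not counted. Hist1h2bk, an H2B gene, had 1.06, 1.05 and 0.814 FPKM in R and 0.123, 0.673 and 0.42 FPKM in vehicle, or 1 to 11 estimated reads. Hist3h2ba had 0.524, 0.724 and 0 FPKM in R and 0.763, 0.869 and 1.38 FPKM in vehicle.

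Of the 9 members listed at 0, 5 cannot be told from other genes and 4 can in part. Hist2h2aa1, Hist2h2aa2, Hist2h2bb, Hist2h3b and Hist2h3c1 have no 50-base word of their own, and all 5 were at 0 in each library. Such copies may lose their reads in counting, so their level is unknown. The testis genes Hist1h2aa and Hist1h2ba, known from the replacement of histones in sperm formation, were also at 0, as were Hist1h2ah and Hist2h2ab, although 76.2% and 61.8% of the words of Hist1h2aa and Hist1h2ba are their own. A count of 0 allows 3 reads, or 0.354 to 0.451 FPKM for Hist1h2aa and 0.359 to 0.458 FPKM for Hist1h2ba over the depths of the libraries. The third testis gene, Hist1h1t, had 0 to 0.303 FPKM in R and 0 in each vehicle library.

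Many H2A and H2B genes lie head to head and share the DNA between their starts. There were 12 such pairs, with starts 176 to 306 bases apart by the annotation. By the mean of all 6 libraries the H2B gene had the higher level in 10 of them, the H2A gene in 1 and both were at 0 in 1. Several of these pairs rest on few reads: Hist1h2ag, Hist1h2an and Hist1h2ap had at most 1 estimated read in a library. Of their 50-base words 21.1%, 14.2% and 6.93% were free of other genes, against 40.6%, 55.9% and 11.3% for their partners Hist1h2bj, Hist1h2bp and Hist1h2br. The order in such pairs is therefore uncertain. The partner of Hist1h2bc, Hist1h2ac, had means of 0.461 FPKM in R and 0.316 FPKM in vehicle, so that the pair differed 154-fold in level over all libraries. Hist1h2bg was 8.16-fold above its partner Hist1h2ae, and Hist2h2be 14.9-fold above Hist2h2ac. By that mean the H2A gene was the higher one in the pair of Hist1h2ad and Hist1h2bf. The H2A genes of these pairs carry the opposite-strand overlaps given above, whose part in this difference was not tested.

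**Figure D4:**
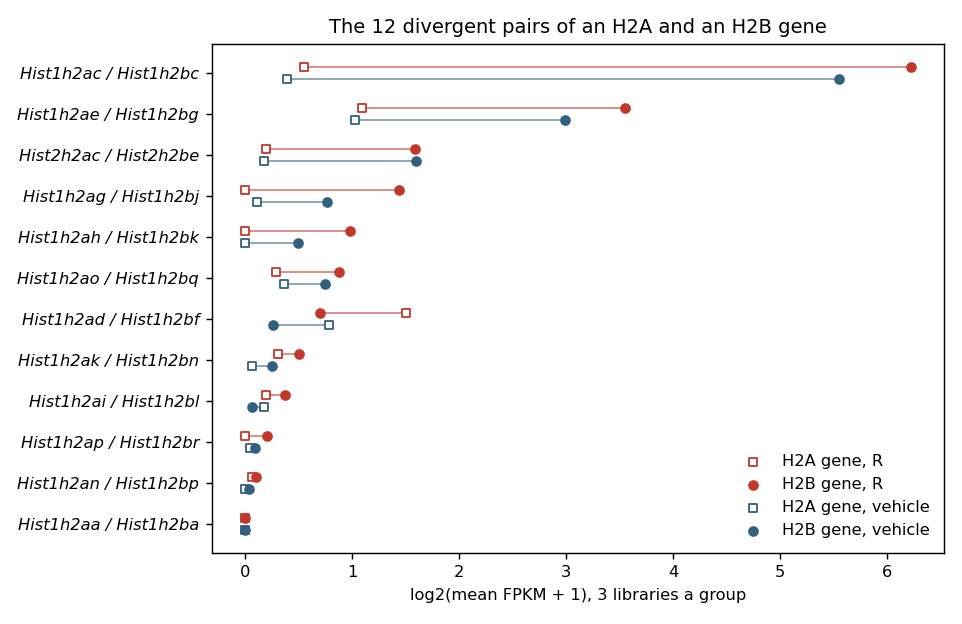
Mean levels of the 12 head-to-head pairs as log2 of the mean FPKM + 1, with R above vehicle in each pair, squares for the H2A gene and circles for the H2B gene. The gap is widest for Hist1h2ac and Hist1h2bc. In the pair of Hist1h2ai and Hist1h2bl the H2B gene is higher in R and the H2A gene higher in vehicle. Hist1h2bl had at most 4 estimated reads in a library and Hist1h2ai at most 2, so the order in this pair is uncertain in both groups.

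RefSeq promoter windows (GRCm38.p6, 250 bases before to 50 after a start) were found for 61 of the 67 members, in 62 windows. They were searched on both strands for the TATA box TATAAA, the CCAAT box CCAAT, the octamer ATTTGCAT, the H1 box AAACACA and the E2F-like word TTTNNCGC. Matches to different words overlapped in 0 of the members' windows. The CCAAT box was in 85.5% of the members' windows and 37.4% of all 32851 windows, and the TATA box in 56.5% and 13.6%. The octamer was in 7 of 17 H2A and 7 of 17 H2B windows and in 0 of the H1, H3 and H4 windows, against 1.74% of all windows. The H1 box was in 5 of 6 H1 windows, against 7.18% of all. Windows of 3 genes with high or changed levels are shown to place these words, in capitals. The first is Hist1h2bg (chr13:23571150-23571449, plus strand), with a CCAAT box on each strand, the octamer and the TATA box in sequence. The second is Hist1h1c (chr13:23738557-23738856, plus strand), with the H1 box and a CCAAT box. The third is Hist1h4h (chr13:23530794-23531093, plus strand), in which none of these words was found.
Hist1h2bg: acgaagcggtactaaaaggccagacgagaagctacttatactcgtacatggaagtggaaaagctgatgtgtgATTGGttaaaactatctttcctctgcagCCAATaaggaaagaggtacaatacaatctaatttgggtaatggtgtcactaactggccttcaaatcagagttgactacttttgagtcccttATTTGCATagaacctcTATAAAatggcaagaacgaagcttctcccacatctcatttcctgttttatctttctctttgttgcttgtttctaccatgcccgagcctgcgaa
Hist1h1c: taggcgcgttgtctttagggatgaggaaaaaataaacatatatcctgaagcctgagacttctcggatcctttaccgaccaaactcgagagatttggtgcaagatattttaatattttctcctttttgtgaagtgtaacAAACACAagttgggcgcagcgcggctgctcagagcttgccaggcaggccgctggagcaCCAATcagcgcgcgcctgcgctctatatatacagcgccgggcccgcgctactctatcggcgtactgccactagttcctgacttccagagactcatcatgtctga
Hist1h4h: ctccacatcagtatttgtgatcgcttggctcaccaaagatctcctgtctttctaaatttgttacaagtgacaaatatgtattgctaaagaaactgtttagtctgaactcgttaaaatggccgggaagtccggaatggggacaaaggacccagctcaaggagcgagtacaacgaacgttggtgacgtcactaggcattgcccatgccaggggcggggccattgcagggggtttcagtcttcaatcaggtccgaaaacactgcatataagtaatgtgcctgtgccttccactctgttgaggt
With none of the words, the Hist1h4h window could share none with any other window. A window of the called gene Hist1h2be (chr13:23585921-23586220, minus strand) held the octamer and CCAAT boxes, as that of Hist1h2bg did. Another window of Hist1h2be (chr13:23621045-23621344, minus strand) held CCAAT boxes but no octamer. The CCAAT box was in 17 of 17 H2B windows, so it does not set the called genes apart. No window was found for Hist1h2bc.

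Genes of S phase and mitosis that passed the test were lower in R, whereas the called histone genes were higher. Of 33 tested DNA replication genes 8 were lower in R and 0 higher, with a median log2 change of -0.37, and of 18 mitosis genes 7 were lower and 0 higher, with a median of -0.46. Over all tested genes 4.43% were called lower and 2.39% higher. Pcna, the sliding clamp of DNA polymerase, had 91.6, 94.2 and 84.2 FPKM in R and 122, 119 and 120 FPKM in vehicle (log2 change -0.41, SE 0.08, adjusted p = 0.031). Top2a, the topoisomerase of dividing cells, had 14.6, 17.4 and 16.4 FPKM in R and 27.2, 24.6 and 26.9 FPKM in vehicle (log2 change -0.67, adjusted p = 0.0088). Both fell without overlap. In the replication list 3 tested genes had a positive log2 change, and in the mitosis list 0 did. The largest was that of Rrm2 (0.76, SE 0.2), which did not overlap between groups and did not pass in limma (adjusted p = 0.07). The proliferation marker Mki67 averaged 14.4 ± 2.82 FPKM in R and 20.7 ± 1.39 FPKM in vehicle (SD, n = 3 each) and did not pass in limma (adjusted p = 0.074). The counts of calls ran from 0 to 10 for the replication list and from 1 to 7 for the mitosis list over the alternatives, with 0 replication genes when low genes were kept or when R replicate 1 or vehicle replicate 1 or 2 was left out, 1 without R replicate 3 and 2 without vehicle replicate 3. The mitosis count was 1 without R replicate 1 or vehicle replicate 1, 2 without vehicle replicate 2 or 3 and 4 without R replicate 3. Whether the histone and replication genes differ in their change was not tested.

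**Figure D5:**
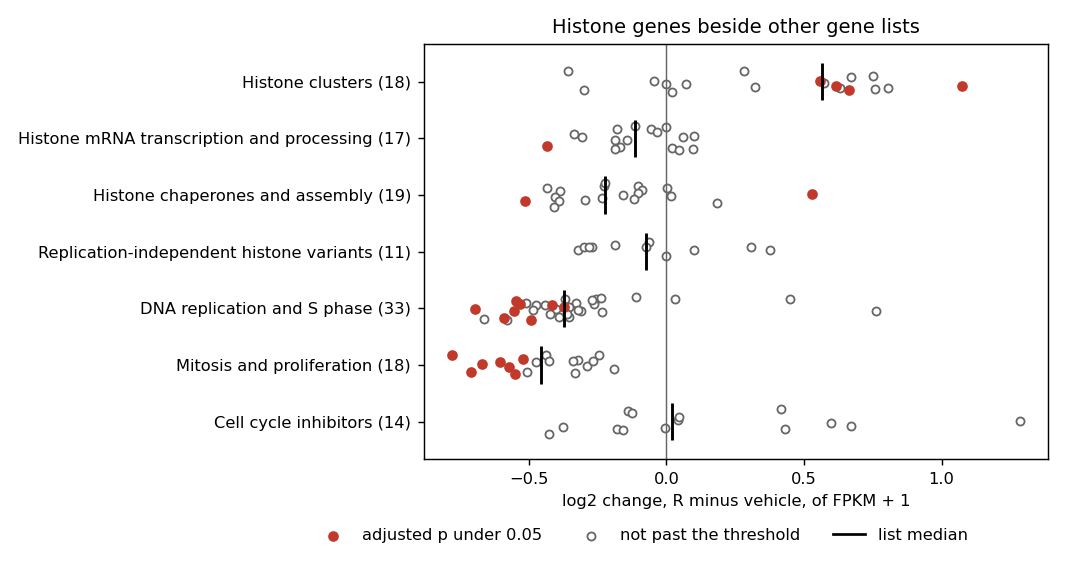
The log2 change of each tested gene (R minus vehicle, of FPKM + 1) in the histone clusters and 6 other lists, with the number tested in brackets; filled points are past the threshold and bars are medians. The histone genes centre near 0.57, the replication and mitosis genes below 0.

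Of 17 tested genes for transcription and processing of histone mRNA, 1 fell and 0 rose, with a median of -0.11, near the shares of 4.43% lower and 2.39% higher over all tested genes. It was Eri1, the exonuclease that trims the stem-loop end, with 4.79, 4.55 and 4.95 FPKM in R and 6.82, 6.75 and 6.76 FPKM in vehicle (log2 change -0.43, SE 0.08, adjusted p = 0.025). That call ended when any library but R replicate 3 was left out, and when genes below the filter were kept in. The stem-loop binding protein gene Slbp averaged 6.89 ± 0.302 FPKM in R and 8.01 ± 0.849 FPKM in vehicle (SD, n = 3 each) and did not pass in limma (adjusted p = 0.3). Npat, the coactivator of histone transcription, averaged 3.75 ± 0.708 FPKM in R and 3.65 ± 0.103 FPKM in vehicle. The values below the threshold with the smallest p-values were those of Casp8ap2, Cpsf2 and Tut7, with log2 changes of -0.34, -0.17 and -0.31.

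Of 19 histone chaperones and assembly factors, 1 fell and 1 rose, also near those shares over all tested genes. Asf1b, a carrier of H3 and H4 in dividing cells, had 10.6, 14 and 11.9 FPKM in R and 16.9, 17.1 and 19.1 FPKM in vehicle (log2 change -0.51, adjusted p = 0.043). Ipo4, the importin that brings H3 and H4 into the nucleus, had 12.5, 15.6 and 12.7 FPKM in R and 9.15, 8.08 and 10.1 FPKM in vehicle (log2 change 0.53, adjusted p = 0.044). These groups did not overlap, but the calls of this list numbered 0 without R replicate 1 or 3 or vehicle replicate 1 or 2, and 1 without R replicate 2 or vehicle replicate 3. They numbered 0 when genes below the filter were kept in, and 1 with equal medians or with libraries rescaled to a common sum. Chaf1a and Mms22l, of DNA-coupled assembly, had log2 changes of -0.39 and -0.41 and did not pass.

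Of 11 tested genes for replication-independent histone variants, 0 passed in limma, and 4 had an unadjusted p under 0.05. H2afx, the variant marked at DNA breaks, averaged 36.7 ± 3.07 FPKM in R and 46 ± 2.16 FPKM in vehicle (log2 change -0.32). H2afz and H3f3a had log2 changes of -0.27 and -0.3, and H2afj, reported in senescent cells, averaged 73.1 ± 18.7 FPKM in R and 55 ± 3.89 FPKM in vehicle (log2 change 0.38, adjusted p = 0.24). Of 14 cell cycle inhibitors 0 passed in limma, and 7 had an unadjusted p under 0.05. The share of all tested genes under that unadjusted bound was not counted. Counts under it here, and for other lists and histone types, thus have no background share beside them. Cenpa, of the variants, had an unadjusted p of 0.046 in limma and an adjusted p of 0.2. By the Benjamini-Hochberg adjustment, these values of Cenpa mean that the share of all tested genes under the bound was well above 0.05. The counts under it are therefore not to be read against a share of 0.05. Cdkn1c had 6.83, 2.65 and 3.09 FPKM in R and 0.718, 0.811 and 1.59 FPKM in vehicle (log2 change 1.29, adjusted p = 0.053). The groups of Cdkn1c did not overlap.

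The cultures held transcripts of more than stromal cells, which touches every bulk value above. All 19 listed stromal markers were in the table and 16 were tested, of which 1 fell and 0 rose. Thy1, Nt5e and Lepr were too low to test. The stromal list summed to 1050 to 1493 FPKM in R libraries, against 846 to 1195 FPKM in vehicle libraries. Of 21 macrophage markers 20 were tested and 5 fell. Over all tested genes 4.43% were called lower and 2.39% higher, and the stromal count is near those shares. The macrophage list summed to 13380 to 16592 FPKM in R libraries, against 16254 to 21793 FPKM in vehicle libraries, with 0 members at 0 throughout. Most of that sum came from Lyz2, at 8707 to 10798 FPKM in R libraries and 9920 to 12885 FPKM in vehicle libraries. C1qb came next, with means of 1177 FPKM in R and 1921 FPKM in vehicle. The count of macrophage markers that fell was 3 without any 1 of the R libraries or vehicle replicate 1 or 2, and 8 without vehicle replicate 3. That of stromal markers was 0 without vehicle replicate 2, and without R replicate 1 another stromal marker rose. T and NK cell markers summed to between 3.37 and 8.64 FPKM in R libraries and between 8.82 and 16.4 FPKM in vehicle libraries, and 2 of 16 were at 0 in each library. The endothelial markers summed to between 4.43 and 8.79 FPKM in R libraries and between 2.49 and 3.42 FPKM in vehicle libraries. The B cell, neutrophil and erythroid and megakaryocyte lists had 2 tested genes each, with 0 past the threshold in limma and 1 at an unadjusted p under 0.05. The part of these markers in the histone values was not tested. Estimated depth was 17980000 to 21750000 reads in R libraries and 17070000 to 20010000 in vehicle libraries.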

How the data were processed

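FPKM values were computed by the authors before they deposited 1 table of all genes, 1 column a sample, per the file headers. Per the submitters' processing notes the build was GRCm38 and edgeR 3.18.1 was used. The sources used here do not name the aligner, counter, annotation, strandedness or read length. Its final line broke off after 10 characters. Symbols, exon lengths and overlaps came from GENCODE M21. Multiplied by exon length, 98.3% to 98.4% of values under 20.5 reads were whole reads within 0.02, and all 205 such values of the histone genes were, which gave the estimated depths and reads. These cover counting error only.

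Values were tested as log2(FPKM + 1) with limma 3.58.1 under R 4.3.3, with a trend in the prior variance, on the 11862 genes with at least 1 FPKM in at least 3 libraries. Changes are R minus vehicle and are understated at low levels. The code was tested on simulated data. The histone genes and lists were chosen with earlier results of these data known. Named were, per histone type, the called genes, the 2 most abundant and those with the highest and lowest change, plus the 3 testis genes and up to 4 genes with the smallest p-values per other list with Slbp, Npat, Mki67 and Pcna. Further histone genes and H1f0, H2afj, Rrm2, Lyz2, C1qb, Thy1, Nt5e, Lepr, Rpph1 and Rmrp were named after their values were seen. Alternatives were other pseudocounts, filters and scalings, a replicate block and leaving out each library.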

Additional observations from a re-analysis of the deposited data

Results flagged for a closer look

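Hist1h2al, annotated in GENCODE M21 as a processed pseudogene of an H2A gene and so not among the 67 members, gave a signal outside the main set. It had 19.8, 20.8 and 15 FPKM in R (mean 18.6) and 5.53, 11.8 and 14.9 FPKM in vehicle (mean 10.7), above every H2A member. It did not pass in limma (log2 change 0.82, SE 0.31, adjusted p = 0.17).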

How the results depend on the processing

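Of the 4 histone calls, that of Hist1h4h held under all 14 alternatives. The count of histone calls was 1 without a filter on low values, 2 with the replicate block and 1 to 3 when a library was left out, down to 1 without R replicate 1 or 2 or vehicle replicate 1 or 2, and 2 without vehicle replicate 3. Over all genes the count was 344 without a filter and 337 to 879 when a library was left out, against 809. No clear pairing by replicate number was seen. Deviations of same-numbered libraries correlated at 0.142, -0.0117 and -0.0309, and those of differently numbered libraries at -0.139 to 0.137. With 3 libraries a group these values cannot exclude a pairing. With the block 756 genes were called, and Hist1h2bc and Hist1h2be were not (adjusted p = 0.059 and 0.07). With it 0 processing genes and 0 chaperones were called, which ended the calls of Eri1, Asf1b and Ipo4.

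The median log2 change of the tested histone genes was 0.22 with a pseudocount of 5, 0.17 without a filter (over 58), 0.600 with equal medians, 0.49 with libraries rescaled to a common sum (over 36 histone genes in place of 18, since the rescaling changed which passed the filter) and 0.41 to 0.61 when a library was left out. The log2 ratio of the H3 sums was 0.55 to 0.84 when a library was left out, against 0.68. The other type sums moved by less than the spread between R libraries.

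The sign of 4 histone genes near 0 turned. Hist1h2ae was at -0.00366 with pseudocount 0.5 and -0.0140 with the common sum, and ran from -0.15 to 0.33 when a library was left out. Hist2h2be was at 0.00790 with quantile normalization, 0.0230 with equal medians and 0.00917 with the common sum, and ran from -0.0733 to 0.0917 when a library was left out. Hist3h2a ran from -0.0183 to 0.13 and Hist1h4m from -0.34 to 0.16. No cause of these shifts was tested. Depth limits short genes at low levels, such as Hist1h3g with 1 to 16 estimated reads in a library.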
